A study of Mus musculus with 9 samples.

Results

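Striatal gene expression was compared between mice given methamphetamine (METH) and mice given MPTP, 2 drugs used to model Parkinson's disease. The comparison took the 3 arrays titled METH and the 3 titled MPTP, 6 of the 9 arrays of the study, and the 3 arrays of saline-injected mice did not enter the contrast. All animals were male C57BL/6J mice, an inbred strain, aged 56 days, and each array held biotin-labelled total RNA of the striatum, which the labels describe as left and right. Each array is 1 mouse, per the labels. The sources used here give neither the doses nor the timing of injection and dissection, so dose and time cannot be matched between the drugs.

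Both drugs injure the terminals that midbrain dopamine neurons send into the striatum. Methamphetamine enters these terminals through the dopamine transporter and displaces dopamine from its vesicles, so that dopamine floods out of the terminal. MPTP is oxidised in glia by monoamine oxidase B to a toxic ion, which the same transporter carries into dopamine neurons, where it blocks respiratory complex I. Astrocytes of the striatum react to such terminal damage with an increase in GFAP, their intermediate filament protein. The cell bodies of the dopamine neurons lie in the midbrain, so striatal RNA comes mostly from spiny projection neurons, interneurons, glia and vessels.

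The striatal origin of the RNA was visible on all 6 arrays. Signals of the spiny neuron genes Penk (proenkephalin) and Ppp1r1b (DARPP-32, a regulator of protein phosphatase 1 under dopamine control) lay between 47495 and 56247 and between 28824 and 34053, against a floor of 741 below which a gene was not tested. Signals are the deposited linear intensities, and their trimmed mean (leaving out 2% at each end) was 2501 on each of the 9 arrays. METH 2 stood apart in its median signal of 1233 over all probe sets, against 1127.2 to 1178.2 on the other 5 arrays of the comparison. Its 3' to 5' signal ratio was the lowest for the Gapdh control probe sets, 0.732 against 0.785 to 0.84, and for actin, 1.08 against 1.11 to 1.17. The other control ratios did not single it out. For pyruvate carboxylase METH 3 was lowest, at 1.42 against 1.72 for METH 2. For the transferrin receptor METH 2, at 2.94, lay within the 2.25 to 3.73 of the other arrays. Array number limits the precision here, with 3 arrays a group, and an exact permutation test of 3 against 3 cannot go below p = 0.1.

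At the level of whole profiles, a METH and an MPTP array differed by about as much as 2 arrays of 1 group did. Over the 7964 genes tested, the SD of the log2 signal differences between a METH and an MPTP array was 0.239 to 0.325 across the 9 such pairs, with a median of 0.256. Pairs of METH arrays gave 0.255 to 0.334 with a median of 0.295, and pairs of MPTP arrays gave 0.255 to 0.267 with a median of 0.259. Without METH 2, the METH to MPTP pairs lay between 0.239 and 0.276 and the single METH pair at 0.255.

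**Figure D1:**
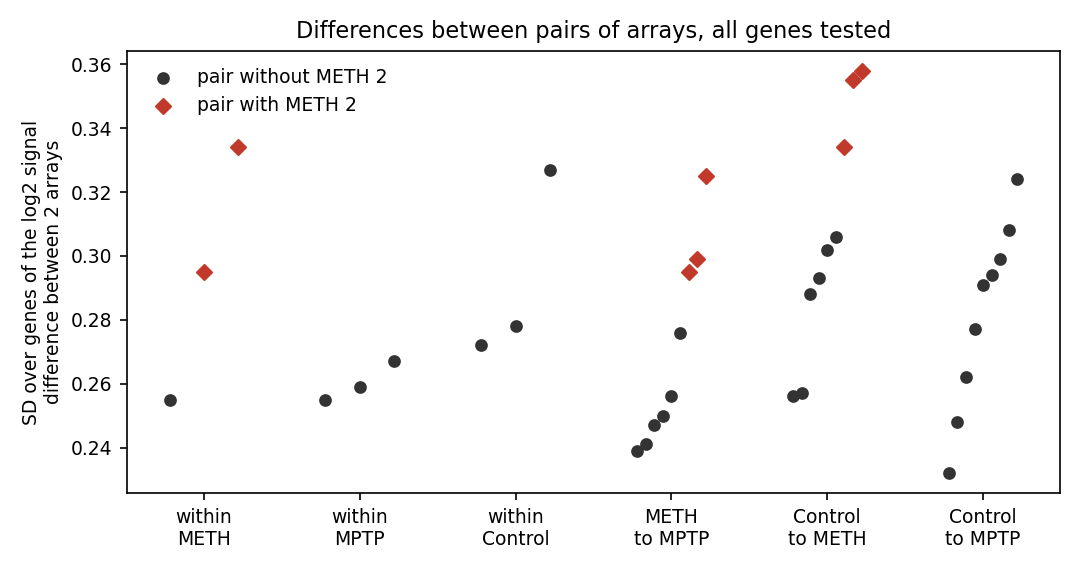
Each point is 1 pair of arrays, placed by the SD over 7964 genes of the log2 signal difference between them (vertical axis, log2 units) and grouped by the kind of pair. The METH to MPTP pairs, 0.239 to 0.325, overlap the pairs within METH and within MPTP, and the pairs with METH 2 (diamonds) are the highest of the METH to MPTP pairs.

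No gene passed the test. With limma's moderated test and Benjamini-Hochberg adjustment over the 7964 genes, 0 genes (0%) had an adjusted p under 0.05 and the smallest adjusted p was 0.999. Before adjustment, 227 genes (2.85% of those tested) had a p under 0.05, 124 higher in METH (1.56%) and 103 lower (1.29%), where a threshold of 0.05 lets 398 through on average when nothing differs. Without METH 3 the split was 208 higher and 118 lower. The METH and MPTP arrays did not overlap for 565 genes (7.09%), with METH above in 270 (3.39%) and below in 295 (3.7%). Centring each array on its median moved that split to 192 above and 386 below. The same held for probe sets, the groups of short oligonucleotides that give 1 signal each: 0 of 13584 were called by limma, and 380 (2.8%) had an unadjusted p under 0.05.

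The measurement bounded most differences closely among the genes past the signal floor. The median standard error of a METH minus MPTP difference was 0.122 on the log2 scale, which gives a median 95% interval of 0.273 on either side, or 1.21-fold. For 7849 genes (98.56%) the whole 95% interval lay within 2-fold in either direction, and for 6281 (78.87%) it lay within 1.41-fold. With no filter on low signal, the interval lay within 2-fold for 9489 of 12393 genes. Bright genes were bounded most tightly, with a median standard error of 0.104 in the 2655 brightest genes and 0.155 in the 2655 dimmest. Of the differences themselves, the 5th and 95th percentiles were -0.214 and 0.232. The difference was above 0 for 3751 genes (47.1%) and below 0 for 4213 (52.9%), with a median of -0.008. A gene of median standard error would have needed 1.055 on the log2 scale, or 2.08-fold, to pass the adjusted threshold if it were the only one to pass, and a gene with a smaller standard error would have needed less.

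**Figure D2:**
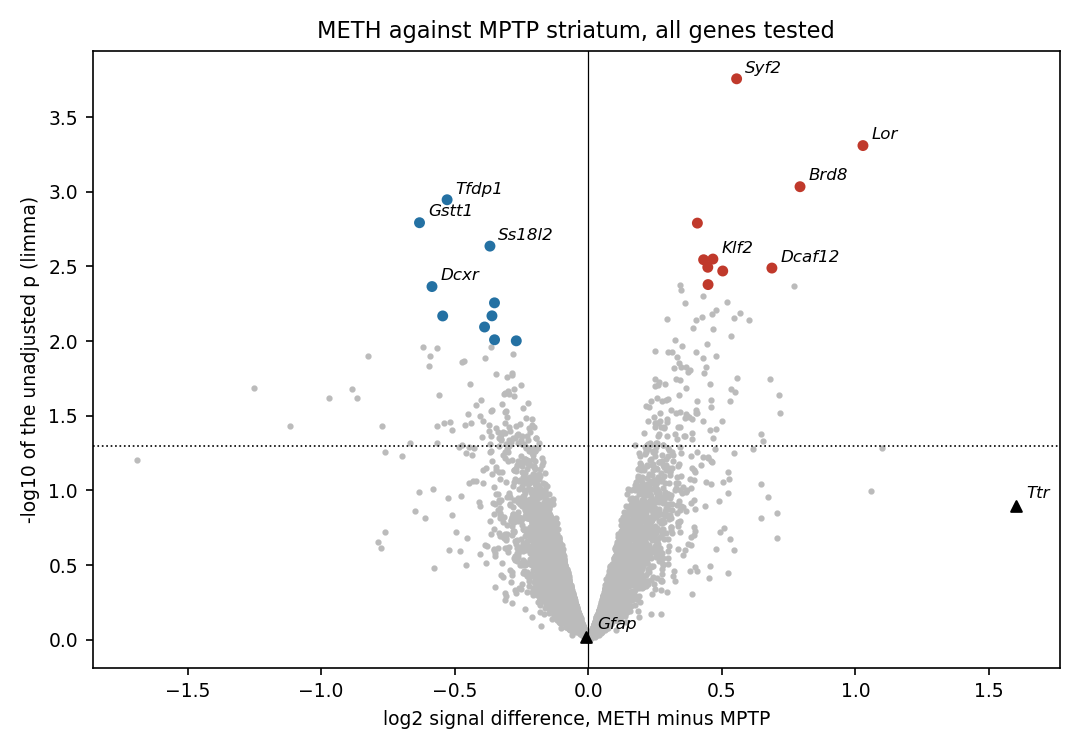
Each point is 1 of 7964 genes, with the log2 signal difference of METH minus MPTP on the horizontal axis and -log10 of limma's unadjusted p on the vertical axis, and a dotted line at an unadjusted p of 0.05. Coloured points are the 10 higher and 10 lower genes of smallest p, of which Syf2 and Tfdp1 lead each side, Gfap lies at the foot of the plot, and Ttr is the point farthest right.

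The gene with the smallest p was Syf2, a splicing factor. Its signal was 2516, 2171 and 2324 on the METH arrays and 1620, 1620 and 1524 on the MPTP arrays. The groups were well separated, with the lowest METH array above the highest MPTP array by more than the range within either group. METH was higher by 0.56 on the log2 scale (SE 0.10, limma, unadjusted p = 0.000175, adjusted p = 0.999). The Control arrays, at 1767, 1892 and 2064, lay between both groups and touched neither. Syf2 was the 1 gene of all tested with every METH array above and every MPTP array below all Control arrays.

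Lor, which encodes loricrin of the cornified skin envelope, had the largest difference among the 10 higher genes. Its signal was 1904, 1131 and 1802 in METH and 768, 825 and 721 in MPTP, and the Control arrays read 583, 535 and 785. Each METH array was above each MPTP array, and the difference was 1.03 (SE 0.20, limma, unadjusted p = 0.00049). Its other probe sets were below the signal floor and pointed in opposite directions, with differences of 0.92 and -0.21. Brd8, a bromodomain subunit of the TIP60 histone acetyltransferase complex, was at 7012, 6861 and 6783 in METH and at 3419, 5168 and 3550 in MPTP, a difference of 0.79 (SE 0.17, limma, unadjusted p = 0.000924). Its 3 METH arrays lay close together and above all the others, while MPTP 2 stood above MPTP 1 and MPTP 3. The other 3 Brd8 probe sets gave smaller differences in the same direction, 0.143, 0.394 and 0.182.

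The remaining higher genes were smaller steps. Dcaf12, a substrate receptor of a cullin ubiquitin ligase, read 2966, 4094 and 3034 in METH and 2176, 1748 and 2317 in MPTP. METH 2 was its highest array, and its difference was 0.69 (SE 0.18). Klf2, a Krüppel-like transcription factor best known in endothelial cells, read 1243, 1293 and 1286 in METH and 980, 886 and 901 in MPTP, with very little spread in either group and a difference of 0.47 (SE 0.12). Rcor1, the CoREST corepressor that works with histone demethylase LSD1, differed by 0.45, though its other probe sets past the floor gave 0.176 and 0.03. Lrrc8c, a subunit of volume-regulated anion channels, differed by 0.50, and Carns1, which makes carnosine, by 0.45. Prr3 and Fam110c completed the 10, at 0.41 and 0.43. The Control mean was nearer MPTP than METH for 8 of the 10, a share that was not counted over all genes tested.

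On the lower side the smallest p belonged to Tfdp1, the dimerisation partner of E2F transcription factors. Its signal was 3583, 2954 and 3605 in METH and 4991, 4787 and 4790 in MPTP, and the Control arrays, at 5519, 5028 and 4311, lay with MPTP. All METH arrays were below all others, and the difference was -0.53 (SE 0.12, limma, unadjusted p = 0.00113). Gstt1, a theta-class glutathione transferase, read 836, 668 and 555 in METH and 1111, 974 and 1065 in MPTP, a difference of -0.63 (SE 0.15, limma, unadjusted p = 0.00161). Some of these METH values lay under the floor that was set on the mean signal. Dcxr, a carbonyl and xylulose reductase, showed much the same range, with 804, 642 and 549 in METH, 1015, 878 and 1072 in MPTP and a difference of -0.58 (SE 0.16).

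Mapkapk5, a protein kinase downstream of MAP kinases, was at 960, 1302 and 1527 in METH against 1800, 1965 and 1675 in MPTP, a difference of -0.54 (SE 0.16), or -0.36 without METH 1. Its METH arrays spread widely but stayed below every MPTP and Control array. Rfx5, which binds class II antigen presentation promoters, differed by -0.35, Mus81, a nuclease that resolves branched DNA, by -0.36, and Rnaseh2c, a subunit of ribonuclease H2, by -0.39, with -0.088 for its other probe set past the floor. Ss18l2, Cmtm8 and Bach2, a transcriptional repressor best known in lymphocytes, differed by -0.37, -0.35 and -0.27. The Control mean was nearer MPTP for 5 of these 10 genes, again without a share over all genes to set beside it. Over both directions, the 6 other probe sets of these genes that passed the floor all shared the sign of the one used, while probe sets below it did not always do so.

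Large differences mostly came with large spread. Of the 7 genes whose fitted difference exceeded 2-fold, named here after their values were seen, Lor alone was among the 20 of smallest p. Ttr, Hspa1b and Ccnq were the other higher ones, and R3hcc1, Rcor2 and Ciapin1 the lower ones. R3hcc1 read 719, 66.3 and 1064 in METH and 1048, 1417 and 1150 in MPTP, and its difference of -1.69 (SE 0.81) was -0.45 without METH 2. Rcor2, a relative of Rcor1, read 1602, 388 and 1208 in METH and 1568, 2365 and 2735 in MPTP, again with METH 2 lowest, and its difference was -1.25 (SE 0.45), or -0.64 without METH 2. For Ccnq, MPTP 2 read 198 where the other 5 arrays lay between 890 and 1642, and the difference of 1.06 (SE 0.59) was 0.19 without MPTP 2.

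**Figure D3:**
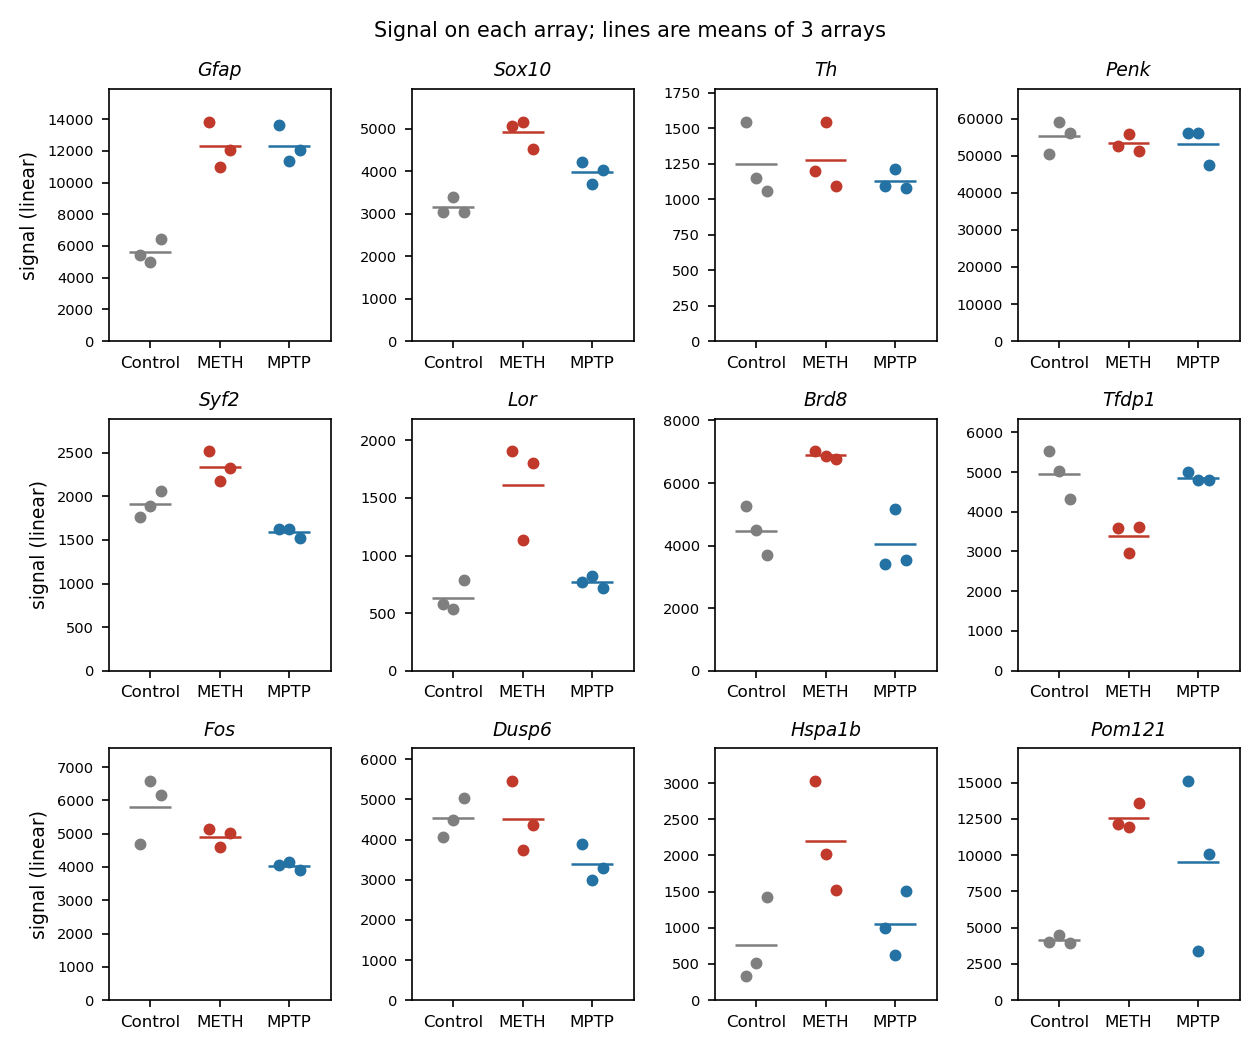
Each panel shows the linear signal (vertical axis, from 0) of 1 gene on the 3 arrays of Control, METH and MPTP, with a line at the group mean. Gfap, Penk and Th overlap between METH and MPTP, Syf2, Lor, Brd8 and Tfdp1 do not, and Pom121 has 1 MPTP array, MPTP 2, at the level of the Control arrays.

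Astrocyte genes were at closely similar levels after both drugs. Gfap read 13823, 10957 and 12077 in METH and 13596, 11350 and 12025 in MPTP, while the Control arrays read 5403, 5020 and 6436. The ranges of both drugs coincided almost fully, both above every Control array, and the METH minus MPTP difference was -0.01 with a 95% interval of -0.29 to 0.28. Vim (vimentin, another filament protein of reacting astrocytes) read 4787, 4497 and 3800 against 4564, 4071 and 3352, with an interval of -0.15 to 0.42. Aqp4, the water channel of astrocyte endfeet, read 6228, 6336 and 6403 against 6699, 6327 and 6432, with an interval of -0.21 to 0.14. Of the 25 astrocyte genes tested, 11 were higher and 14 lower, with a median difference of -0.005. In limma, 1 had an unadjusted p under 0.05, where 2.85% of all genes did. That gene was Prodh, proline dehydrogenase, at 1841, 2288 and 1903 in METH and 1533, 1688 and 1533 in MPTP, a difference of 0.34 (SE 0.11). Among 11 tested reactive astrocyte genes, 7 were higher and 4 lower, with a median of 0.012. None of these genes passed the test or had an unadjusted p under 0.05 in limma. With each array centred on its median, 5 of the 11 were higher (45.5%), with a median of -0.011. In that setting 38.9% of all genes were higher and their median was -0.031. In bulk RNA fewer cells of a type and less RNA per cell cannot be told apart, here and for each cell type that follows.

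Microglial genes had no common direction. Tyrobp, the signalling adaptor of microglial receptors, read 3408, 2963 and 3028 in METH and 3012, 2999 and 2831 in MPTP, with a difference of 0.09 (95% interval -0.14 to 0.31). Ctss, the lysosomal protease cathepsin S, read 9608, 10380 and 8932 against 9545, 8350 and 9453, with an interval of -0.16 to 0.32. Irgm1, an interferon-induced GTPase, was at 1376, 1153 and 1279 against 1236, 1157 and 1160. All 3 genes overlapped between the groups. The microglia and macrophage list had 17 of 31 tested members higher and a median of 0.017. In limma, 3 members had an unadjusted p under 0.05, where 2.85% of all genes did. Selplg, a selectin ligand, read 3766, 3815 and 3187 in METH and 2958, 2180 and 2812 in MPTP, without overlap, a difference of 0.45 (SE 0.14). Aif1, the microglial protein IBA1, read 961, 769 and 911 against 772, 786 and 603, a difference of 0.29 (SE 0.13) that was 0.17 without MPTP 3. Lgmn, a lysosomal protease, went the other way, at 3987, 3470 and 4357 against 4720, 4967 and 4319, a difference of -0.25 (SE 0.11), or -0.16 without METH 2. The complement list had 5 of 12 members higher and a median of -0.011, and the interferon list 12 of 19 and 0.06. Chemokines, cytokines and their receptors had 12 of 21 higher, with no member at an unadjusted p under 0.05 in limma, and class I antigen presentation 7 of 11. The list of LXR-driven lipid transport had 12 of 22 members higher and a median of 0.009. Its lipid exporter Abca1 differed by 0.06 (95% interval -0.16 to 0.29), while Lpcat3, which builds polyunsaturated phospholipids, read 2530, 2700 and 2251 in METH and 1746, 2048 and 2020 in MPTP, without overlap and at a difference of 0.36 (SE 0.10, limma, unadjusted p = 0.00559). Hk2, a hexokinase, differed by -0.11 (95% interval -0.34 to 0.12).

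Dopamine terminals contribute little RNA to the striatum, and few of their genes could be tested. Of 16 measured genes of dopamine neurons, 5 passed the signal floor, 3 of them higher and 2 lower in METH, with a median of 0.014. Th, tyrosine hydroxylase, the rate-limiting enzyme of dopamine synthesis, read 1201, 1546 and 1095 in METH, 1092, 1215 and 1078 in MPTP and 1542, 1151 and 1057 in Control. The groups overlapped throughout, and the METH minus MPTP interval was -0.20 to 0.53. Ddc, the next enzyme of the pathway, read 1687, 1769 and 1357 against 1932, 1608 and 1575, with a difference of -0.09. Slc6a3, the dopamine transporter through which both toxins act, was below the floor, and Slc18a2, Maob, Drd1 and Adora2a were not analysed here. Among 8 tested genes of monoamine breakdown and uptake, 4 were higher and 4 lower, and Maoa, monoamine oxidase A, differed by -0.15 (95% interval -0.48 to 0.18).

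Transcripts of the spiny neurons that receive dopamine were close as well. Drd2, the dopamine receptor of the indirect pathway, read 17339, 18245 and 17645 in METH and 18234, 18192 and 14795 in MPTP, and its difference of 0.06 had an interval of -0.17 to 0.30. Penk, the opioid precursor of the same cells, had an interval of the difference of -0.22 to 0.23. Tac1, the substance P precursor of the direct pathway, read 20113, 20090 and 21373 against 23137, 21322 and 19659, and Pdyn, the dynorphin precursor, read 1914, 1361 and 1689 against 1789, 2200 and 1553. Their differences were -0.06 and -0.16, and the groups overlapped for both. Ppp1r1b was at 32019, 34053 and 31100 in METH and 31092, 29681 and 28824 in MPTP, so that its groups just failed to overlap at a difference of 0.12 (95% interval -0.12 to 0.35).

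Of the shared markers of spiny neurons, 17 of 23 were higher in METH, with a median of 0.027. The list spiny neurons, shared markers had 12 of 23 higher without METH 2 and a median of 0.012, where 47.2% of all genes were higher. With each array centred on its median it had 12 of 23 (52.2%) and a median of 0.004. In that setting 38.9% of all genes were higher and their median was -0.031. After quantile normalization it had 22 of 23, where 45.5% of all genes were higher. Actn2, an actin crosslinker of the spine, read 5780, 6087 and 6639 in METH and 4697, 4764 and 5094 in MPTP, a difference of 0.35 (SE 0.12, limma, unadjusted p = 0.0183). Foxp2, a forkhead transcription factor, read 1773, 2155 and 1971 against 1639, 1608 and 1623, a difference of 0.27 (SE 0.11, limma, unadjusted p = 0.0374). They were the 2 members of 23 with an unadjusted p under 0.05, where 2.85% of all genes had one. The interneuron list had 6 of 14 tested members higher and 8 lower, with a median of -0.066. At an unadjusted p under 0.05 in limma were 2 members, both lower, where 1.29% of all genes were lower at that level. Sst (somatostatin) was lower in METH, at 10472, 9739 and 11203 against 12361, 12332 and 12646, a difference of -0.25 (SE 0.09, limma, unadjusted p = 0.0198). Its MPTP values lay inside the Control range of 11426 to 13030. Calb2 (calretinin) read 1018, 514 and 425 in METH and 1071, 1229 and 1020 in MPTP, where METH 1 nearly met MPTP 3 and the difference was -0.86 (SE 0.33, limma, unadjusted p = 0.0241). Its Control arrays ran from 605 to 1175.

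Activity-dependent genes leaned toward METH. Immediate early genes are switched on within minutes by calcium and growth factor signals, and in the striatum by dopamine acting on spiny neurons. Of 41 tested members of this list, 32 were higher in METH and 9 lower, with a median difference of 0.159, where 47.1% of all genes were higher and their median was -0.008. None passed the adjusted test. At an unadjusted p under 0.05 in limma, 4 were higher and 1 lower, where 1.56% of all genes were higher and 1.29% lower. All METH arrays lay above all MPTP arrays for 5 members (12.2%), against 3.39% of all genes. Without MPTP 2, which had the lowest values, the immediate early genes had 29 of 41 members higher and a median of 0.103. The mean log2 deviation of the list from its 9-array mean was 0.043, 0.028 and 0.026 on the METH arrays, -0.057, -0.211 and -0.03 on the MPTP arrays and 0.025, 0.017 and 0.16 on the Control arrays. METH thus lay within the Control range, and MPTP below both. Members of the list share samples and signals, so these counts are a description and not a test.

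Fos, the prototype transcription factor of this class, read 5127, 4597 and 5007 in METH, 4057, 4145 and 3909 in MPTP and 4679, 6583 and 6152 in Control. All MPTP arrays were below all METH and Control arrays, and METH minus MPTP was 0.28 (SE 0.13, limma, unadjusted p = 0.0499). Dusp6, which dephosphorylates ERK, read 5461, 3743 and 4355 against 3887, 2986 and 3300, a difference of 0.41 (SE 0.15, limma, unadjusted p = 0.0253), or 0.26 without METH 1, with METH 2 below the highest MPTP array. Dusp14, another dual-specificity phosphatase, read 9535, 9689 and 10090 against 9338, 6126 and 7281, a difference of 0.39 (SE 0.16, limma, unadjusted p = 0.033), and MPTP 1 lay just under the METH arrays. Without MPTP 2 the Dusp14 difference was 0.245. Klf2, described above, also belongs to this list. Ier2 went the other way, at 755, 528 and 628 in METH against 1086, 683 and 1151 in MPTP, a difference of -0.59 (SE 0.19, limma, unadjusted p = 0.0125) at signals around the floor.

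Other well known members did not reach that level. Arc, a synaptic protein made on neuronal activity, read 11233, 8404 and 8355 in METH and 7717, 7357 and 6901 in MPTP, with no overlap but an interval of -0.17 to 0.85 (difference 0.34, or 0.20 without METH 1). Its Control arrays spread from 6311 to 12024. Egr1, a zinc finger transcription factor, read 38876, 32963 and 37106 against 33501, 27062 and 35767, and its interval was -0.12 to 0.49. Junb differed by -0.04 and Dusp1 by 0.17, and both overlapped between the groups. The dual-specificity phosphatases as a family, which share some genes with the list above, had 11 of 14 tested members higher and a median of 0.108. Per1, a clock gene that also responds to activity, differed by 0.29, while the 20 tested circadian clock genes were split into 11 higher and 9 lower with a median of 0.024.

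The promoters of these genes were read for 2 elements through which activity acts on transcription, and Fos and Klf2 are shown because both hold a match. The sequences are the 250 bases before the start site, from RefSeq on build GRCm38.p6, written 5′ to 3′ in the direction of the gene, with capitals for the short core of the cyclic AMP response element, TGACG on either strand.
Fos, chr12:85473640-85473889, plus strand: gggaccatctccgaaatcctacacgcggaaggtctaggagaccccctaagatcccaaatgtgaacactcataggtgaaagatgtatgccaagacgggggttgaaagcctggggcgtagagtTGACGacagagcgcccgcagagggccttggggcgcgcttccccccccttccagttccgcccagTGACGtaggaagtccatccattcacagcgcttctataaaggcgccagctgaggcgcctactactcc
Klf2, chr8:72318812-72319061, plus strand: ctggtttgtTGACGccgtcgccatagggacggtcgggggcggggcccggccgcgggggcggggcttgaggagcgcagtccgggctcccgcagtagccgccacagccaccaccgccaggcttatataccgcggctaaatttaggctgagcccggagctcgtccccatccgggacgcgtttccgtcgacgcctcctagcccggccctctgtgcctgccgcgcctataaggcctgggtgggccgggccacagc
The short motif had 2 matches in the Fos promoter, starting 129 and 66 bases before the start site, and 1 in Klf2, 241 bases before it. It was in neither the Dusp6 nor the Dusp14 window. Of all 32851 promoters of this length in the table, 17.8% held it. The full element TGACGTCA, in 1.55% of promoters, and the serum response element (CArG box, in 1.47%) had no match in these 4 windows, which says only that these letters are not in them.

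Oligodendrocyte genes leaned toward MPTP. These cells wrap axons in myelin, and the striatum holds many of them in its fibre bundles. Of 33 tested members, 6 were higher in METH and 27 lower, with a median of -0.075, and without METH 2 the list of myelinating oligodendrocytes had 9 higher and a median of -0.046. The mean log2 deviation of the list was 0.096, -0.076 and -0.02 on the METH arrays and 0.096, 0.106 and 0.061 on the MPTP arrays, so METH 1 lay with MPTP. Control arrays lay from -0.197 to -0.002. Mbp, myelin basic protein, was among the brightest genes, at 53562, 64729 and 54901 against 65199, 58510 and 55771, and its interval was -0.29 to 0.19.

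Transcription factors of the lineage differed in direction on the probe sets used. Olig2 was lower in METH, at 2182, 2161 and 2456 against 2668, 3035 and 2557 in MPTP, a difference of -0.28 (SE 0.10, limma, unadjusted p = 0.0232), with METH near the Control arrays at 2023 to 2347. Sox10 was higher, at 5057, 5160 and 4517 against 4227, 3710 and 4038, a difference of 0.30 (SE 0.10, limma, unadjusted p = 0.0118), and both groups lay above the Control arrays at 3033 to 3398. For both genes the groups did not overlap, but with the mean of all its probe sets Sox10 differed by 0.06. Pllp, the myelin membrane protein plasmolipin, differed by -0.36, at 4002, 3604 and 3007 against 4438, 4973 and 4147 (SE 0.14, limma, unadjusted p = 0.0288). Aspa, which breaks down N-acetylaspartate and is named here after its value was seen, was the remaining member at that level, at -0.20. Precursor cells of the lineage had 6 of 15 tested genes higher and a median of -0.022, and their receptor Pdgfra differed by -0.21 (95% interval -0.46 to 0.05).

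Of the mitochondrial lists, those of the respiratory complexes and the tricarboxylic acid cycle had most members lower in METH, by small amounts, while mitochondrial ribosomal proteins (32 of 74 higher, median -0.022), carriers and import (23 of 52, -0.022) and dynamics and biogenesis (13 of 31, -0.003) were near the 47.1% of all genes. Complex I, the target of the MPTP metabolite, had 7 of 39 tested subunits and assembly factors higher in METH and 32 lower, with a median of -0.046 and no member at an unadjusted p under 0.05 in limma. That lean was not there without METH 2, where respiratory complex I had 21 of 39 higher and a median of 0.02. Its score was -0.01, -0.124 and -0.031 on the METH arrays and 0.055, -0.02 and -0.051 on the MPTP arrays, so that METH 2 was lowest and the other arrays overlapped. Ndufb8, the member with the smallest p, read 10931, 10737 and 11260 in METH and 13175, 13099 and 11224 in MPTP, a difference of -0.18 (95% interval -0.41 to 0.04).

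The remaining respiratory complexes had 8 of 44 members higher and 36 lower, with a median of -0.074, and 9 (20.5%) had all METH arrays below all MPTP arrays, against 3.7% of all genes. Without METH 2 the respiratory complexes II to V had 12 of 44 higher and a median of -0.073. Their score was -0.066, -0.076 and -0.046 on the METH arrays, 0.005, 0.026 and 0 on the MPTP arrays and 0.087, 0.01 and 0.06 on the Control arrays, so MPTP lay between METH and most Control arrays. Atp5g2, a ring subunit of ATP synthase, read 10518, 11405 and 11710 against 12132, 13382 and 12671, a difference of -0.18 (95% interval -0.40 to 0.03). Sdhd, a membrane anchor of complex II, differed by -0.36, with METH 2 lowest and MPTP 3 highest, and by -0.22 without METH 2 and -0.20 without MPTP 3. The tricarboxylic acid cycle had 6 of 30 members higher at a median of -0.062, which became 12 of 30 and -0.022 for the tricarboxylic acid cycle without METH 2. Its entry enzyme Cs, citrate synthase, read 12758, 12642 and 12330 in METH and 15222, 14729 and 14689 in MPTP, a clear gap between the groups, but its Control arrays ran from 11886 to 16898 and the 95% interval was -0.53 to 0.04. With the mean of all its probe sets Cs differed by -0.12. Glycolysis had 7 of 26 members higher and a median of -0.038.

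Proteasome subunits showed the lowest share of higher members of any list with at least 10 members tested, 5 of 35 (14.3%), with a median of -0.055. Psma5, a subunit of the proteasome core, read 6947, 5847 and 6635 in METH and 8989, 6917 and 8898 in MPTP, a difference of -0.35 (SE 0.12, limma, unadjusted p = 0.0165), with MPTP 2 just inside the METH range. Psmd14, the deubiquitinase of the proteasome lid, read 12462, 12031 and 11905 against 12983, 14238 and 13784, a difference of -0.17 (95% interval -0.35 to 0.01). Without METH 2 the proteasome subunits had 10 of 35 higher and a median of -0.056. Autophagy genes had 8 of 28 higher and a median of -0.037, and Becn1 (beclin 1) differed by -0.19.

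**Figure D4:**
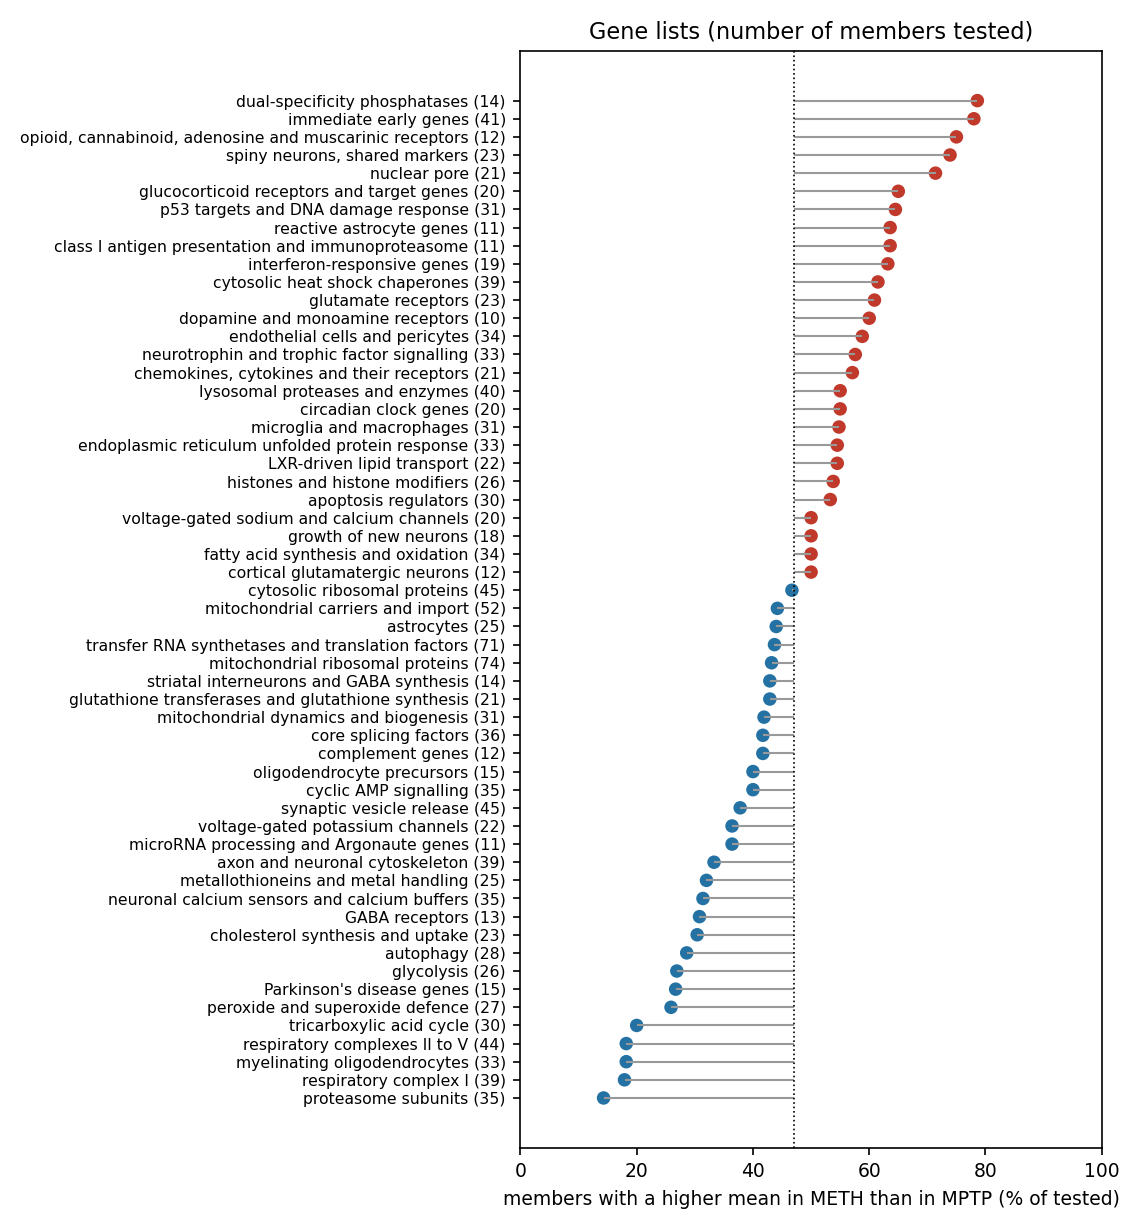
Each point is a gene list with at least 10 tested members (their number in brackets), placed by the percentage of members with a higher mean in METH than in MPTP, and the dotted line is the 47.1% of all genes. Dual-specificity phosphatases (78.6%) and immediate early genes (78%) lie farthest right and proteasome subunits (14.3%) farthest left.

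Nuclear pore proteins, which build the channels between nucleus and cytoplasm, had 15 of 21 members higher in METH and a median of 0.085. In the brighter genes left by a filter at the 60th percentile of signal, the nuclear pore had 6 of 11 higher and a median of 0.017. Of all genes left by that filter, 44.7% were higher and the median was -0.013. Nup153 read 3598, 3611 and 3607 in METH and 3147, 2794 and 3356 in MPTP, a difference of 0.22 (SE 0.09, limma, unadjusted p = 0.0341), and its Control arrays, at 3219 to 3389, lay below METH. Ndc1, a membrane anchor of the pore, read 882, 1160 and 924 against 836, 782 and 677, a difference of 0.37 (SE 0.15, limma, unadjusted p = 0.0306). Pom121, another membrane anchor, varied far more between animals: it read 12179, 11966 and 13610 in METH and 15118, 3413 and 10044 in MPTP, while the Control arrays read 4030, 4482 and 3944. The difference of 0.65 was 0.03 without MPTP 2. MPTP 2 was at the Control level and the other 5 drug arrays were at 10044 or above.

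**Figure D5:**
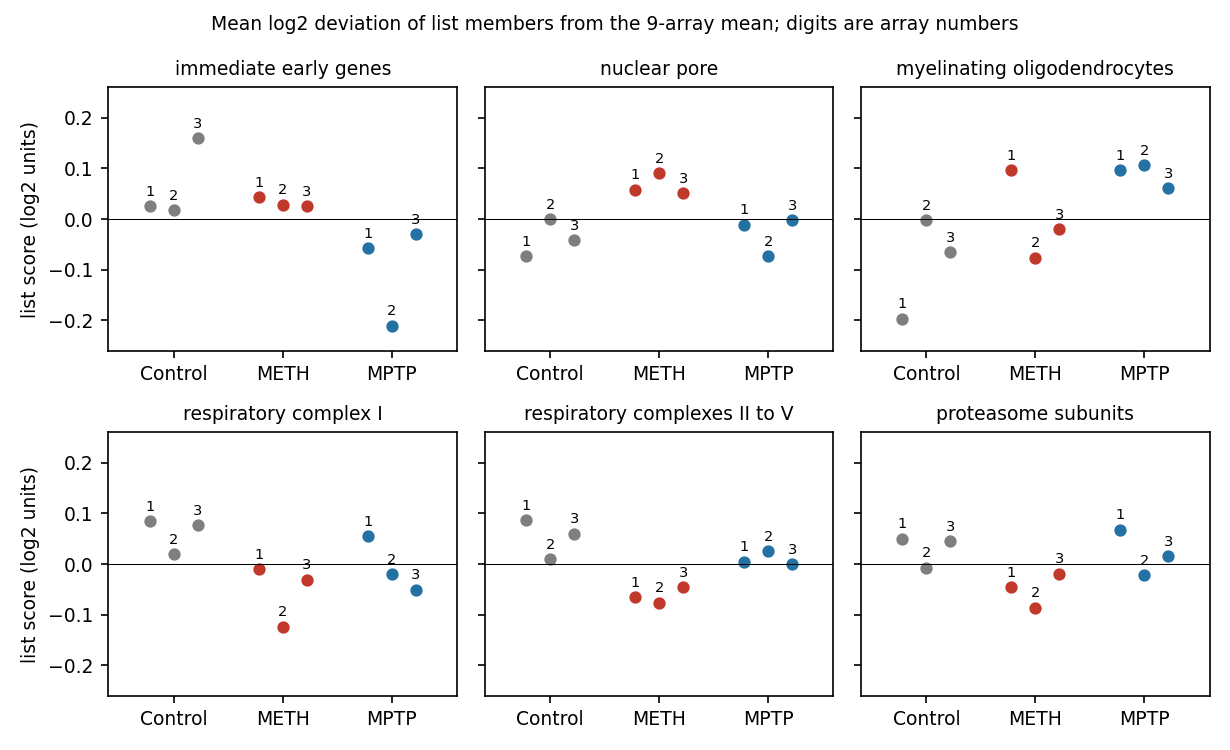
Each point is 1 array, placed by the mean log2 deviation of the tested list members from their mean over 9 arrays (vertical axis), for 6 lists and 3 groups, and the digits are array numbers. METH and MPTP do not overlap for immediate early genes, nuclear pore and respiratory complexes II to V, and they overlap for the other 3 lists, where METH 2 is the lowest METH array.

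Among stress genes the heat shock chaperones stood out by single members. Dnajb1, a co-chaperone of HSP70, read 6654, 6014 and 5422 in METH and 4860, 3918 and 4703 in MPTP, a difference of 0.43 (SE 0.13, limma, unadjusted p = 0.00688). The groups did not overlap, and the Control arrays lay from 4626 to 5759. Hspa1b, an inducible HSP70, read 3031, 2026 and 1525 in METH and 1000, 626 and 1515 in MPTP, and its difference of 1.10 had an interval of -0.01 to 2.21. The lowest METH and the highest MPTP array were almost equal, and its Control arrays ranged from 335 to 1428. Its copy Hspa1a read 1839, 1232 and 857 against 659, 758 and 1009, a difference of 0.65 (SE 0.28, limma, unadjusted p = 0.0416), or 0.37 without METH 1. The list of 39 tested cytosolic chaperones had 24 higher and a median of 0.038. Hspa1a and Hspa1b are near-identical neighbours, and signal of one cannot be told from that of the other with certainty. Their promoters lie before the start site and are not read by the probes, whose sequences were not compared. The promoter windows are given as above, with capitals for the core of the heat shock element, GAANNTTC.
Hspa1a, chr17:34972157-34972406, minus strand: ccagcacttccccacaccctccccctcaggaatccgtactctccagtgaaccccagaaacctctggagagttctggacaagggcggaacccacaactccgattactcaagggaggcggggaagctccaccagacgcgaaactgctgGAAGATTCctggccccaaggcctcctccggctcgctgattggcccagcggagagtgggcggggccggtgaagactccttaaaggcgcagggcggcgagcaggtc
Hspa1b, chr17:34959239-34959488, minus strand: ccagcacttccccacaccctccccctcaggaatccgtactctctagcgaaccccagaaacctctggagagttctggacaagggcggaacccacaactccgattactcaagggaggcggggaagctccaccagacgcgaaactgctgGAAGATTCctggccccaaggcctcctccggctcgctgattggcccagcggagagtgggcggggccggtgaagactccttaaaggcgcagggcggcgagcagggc
These windows were identical at 247 of 250 positions (98.8%), and each held 1 match, starting 104 bases before the start site. Of all promoters of this length 6.69% held the motif.

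The other stress pathways differed in their share of higher members. The unfolded protein response of the endoplasmic reticulum had 18 of 33 members higher and a median of 0.009, and Ddit3, its transcription factor CHOP, differed by 0.24 (95% interval -0.08 to 0.55). Peroxide and superoxide defence had 7 of 27 members higher and a median of -0.028. Prdx4, a peroxiredoxin of the secretory pathway, read 2312, 1735 and 1910 in METH and 2401, 2510 and 2346 in MPTP, a difference of -0.29 (SE 0.12, limma, unadjusted p = 0.0402), while Sod3, the extracellular superoxide dismutase, differed by 0.29 in the other direction (95% interval -0.05 to 0.63), or by 0.18 without METH 2. Metallothioneins and metal handling had 8 of 25 members higher and a median of -0.065. Mt1, a metallothionein that binds zinc, was lower in METH, at 26337, 25289 and 25249 against 28453, 30668 and 28295, a difference of -0.18 (SE 0.08, limma, unadjusted p = 0.0481), and Mt2 read 18096, 17590 and 18139 against 19647, 20377 and 19945. Neither metallothionein overlapped between the groups. Apoptosis regulators were split into 16 higher and 14 lower, and p53 targets into 20 higher and 11 lower with a median of 0.04. Of 15 tested Parkinson's disease genes, 4 were higher and 11 lower, with a median of -0.022 and none at an unadjusted p under 0.05 in limma.

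The list headed GABA receptors holds receptor subunits together with proteins that bind them or handle GABA. Of its 13 tested members, 4 were higher and 9 lower with a median of -0.078, and 5 had all METH arrays below all MPTP arrays, where 3.7% of all genes did. The 8 receptor subunits among them, separated after the values were seen, were split into 4 higher and 4 lower with a median of -0.02, and 2 had METH below MPTP on all arrays, Gabra3 and Gabrg1. The other 3 were the receptor anchor Gphn (gephyrin) and the Atg8-family proteins Gabarap and Gabarapl1, named after their values were seen, with differences of -0.17, -0.08 and -0.17. Gabra3, a subunit of the GABA-A receptor, read 1066, 726 and 1332 in METH and 1338, 1643 and 1697 in MPTP, a difference of -0.62 (SE 0.20, limma, unadjusted p = 0.011). Gabrg1, a gamma subunit, read 1168, 721 and 1306 against 1526, 1511 and 1399, a difference of -0.52 (SE 0.21, limma, unadjusted p = 0.0349). METH 2 was the lowest array for both, METH 3 nearly met the lowest MPTP array for Gabra3, and without METH 2 the differences were -0.38 for Gabra3 and -0.26 for Gabrg1. Without METH 2 the GABA receptors had 2 of 13 higher and a median of -0.089.

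Glutamate receptors did not separate, with 14 of 23 higher and a median of 0.036. The muscarinic receptor Chrm1 read 2929, 3558 and 3693 in METH and 2882, 2574 and 2784 in MPTP, a difference of 0.30 (SE 0.11, limma, unadjusted p = 0.0244), in a receptor list with 9 of 12 members higher and a median of 0.06. Hrh1, the histamine H1 receptor, differed by -0.44 (SE 0.18, limma, unadjusted p = 0.0356), at signals of 584 to 742 in METH and 764 to 1084 in MPTP. The 45 tested genes of synaptic vesicle release had 17 higher and a median of -0.026, and the 39 of axon and cytoskeleton 13 higher and a median of -0.029.

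Choroid plexus and blood genes varied between animals within each group. Ttr, transthyretin, which the choroid plexus makes in very large amounts, read 43941, 50423 and 8555 in METH, 33342, 2853 and 7142 in MPTP and 65370, 34984 and 11543 in Control. High and low arrays occurred in every group, and the interval of the difference was -0.54 to 3.75. The choroid plexus and ependymal list as a whole had 4 of 7 tested members higher and a median of 0.257, the highest of all lists. For choroid plexus and ependymal cells the median was 0.087 without METH 2, 0.134 without MPTP 2 and 0.793 for the 2 members left by the filter at the 60th percentile. Scored in the same way as above, the list ran from -0.387 to 0.477 on the METH arrays, -0.449 to 0.083 on the MPTP arrays and -0.149 to 0.492 on the Control arrays. Its part in other differences was not tested. Hbb-b2, a haemoglobin chain of red blood cells, read 1011, 1068 and 880 against 795, 802 and 1173, and blood cell genes had 2 of 4 higher. Endothelial cells and pericytes had 20 of 34 higher and a median of 0.01.

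Across the whole set of 63 lists, which hold 1493 tested genes, no gene passed the adjusted test. Of the 60 lists with at least 5 tested members, 57 had a median difference within 0.1 of 0 on the log2 scale, and the range of medians was -0.078 to 0.257. Cytosolic ribosomal proteins had 21 of 45 members higher, core splicing factors 15 of 36 and histones and their modifiers 14 of 26. In the set of 24 tested genes that mark the main cell types and responses, from Gfap to Ttr, 16 were higher and 8 lower, 22 had a 95% interval that included 0, and 23 had an interval wholly within 2-fold, Ttr being the exception.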

How the data were processed

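Single-colour Affymetrix arrays measured striatal RNA of 9 mice, 3 per group. The deposited table holds 1 linear intensity for each of 22690 probe sets per array, from 0.342 to 84013. The submitters' processing notes name RMA without a version or settings, and the deposited values of every array have a 2% trimmed mean of 2501. Which step set the linear scale is not given in the sources used here.

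Intensities were taken to log2. Probe sets with a single symbol (20380) were kept, the brightest per gene was used (12393 genes), and genes below the 40th percentile of mean signal (741) were left out, which left 7964. In limma 3.58.1 (R 4.3.3) 1 mean per group was fitted to all 9 arrays, which share the estimate of spread, and METH minus MPTP was tested two-sided with Benjamini-Hochberg adjustment at 0.05. The fit was tested on simulated data. Genes to name were the 10 higher and 10 lower of smallest p, up to 3 members of each list by smallest p, and a set of 30 marker and response genes. This rule gives 208 genes, and not all of them are named in the text. Those left out include Eif2d, Ddb2, Mrps18b and Kmt2a, each at an unadjusted p under 0.05 in limma. Members and lists were chosen with earlier results of these data known. The p-values are those of 3 against 3 arrays, and no gene list was tested.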

Additional observations from a re-analysis of the deposited data

Results flagged for a closer look

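Syf2 was the 1 gene (0.0126% of those tested) for which every METH array lay above all Control arrays and every MPTP array below them. Its METH minus MPTP difference was 0.56 on the log2 scale (0.5556), and that METH and MPTP move in opposite directions from Control was not tested as a difference of its own.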

How the results depend on the processing

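All 21 alternatives left 0 genes past the adjusted threshold, and 0 probe sets where those were tested, with smallest adjusted p-values from 0.176 (without METH 2) to 1. The count of genes at an unadjusted p under 0.05 was 405 of 12393 genes with no signal filter and 148 of 5582 with the filter at the 60th percentile, against 227 in the report. Genes whose groups did not overlap numbered 948 with no filter and, on leaving out 1 array, from 565 (a Control array, which has no part in the count) to 1438, which fewer arrays bring about by construction. With the replicate numbers of the titles as a replicate block, 205 genes (9 arrays) and 217 (6 arrays) were at an unadjusted p under 0.05 and 0 passed. Deviations of equally numbered METH and MPTP arrays from their group means correlated at -0.076, -0.152 and -0.115. Unequally numbered arrays were not compared in this way, so whether the numbers pair the animals was not tested.

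Of the 91 genes named, 84 kept the sign of their difference in every alternative. The other 7 were close to 0. For Gfap the sign turned to 0.008 with quantile normalization, with cyclic loess and with the mean of all probe sets and to 0.053 with array weights, and leaving out 1 array gave -0.095 to 0.072. For Penk it turned to -0.019 with median centring and -0.024 with array weights, with -0.076 to 0.046 on leaving out 1 array. Leaving out 1 array gave -0.166 to 0.025 for Ddc, -0.038 to 0.113 for Drd2, -0.168 to 0.132 for Junb, -0.139 to 0.01 for Mbp and -0.114 to 0.003 for Tac1. Of the 74 genes named with a difference of at least 0.15 in size, 24 moved by over 1.5 times on leaving out 1 array. The cause was not tested. With 3 arrays a group and no probe-level background values used here, small differences and dim genes are limited most.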
